A study of Mus musculus with 6 samples.

Results

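The enzymes described here carry methionine through its cycle, move its sulfur to cysteine and turn cysteine into taurine. They are 10 genes, Mat1a, Mat2a, Gnmt, Ahcy, Bhmt, Bhmt2, Cbs, Cth, Cdo1 and Csad, chosen by name, and each matched 1 row among the 55450 genes of the count table. RNA was sequenced from the livers of 6 mice, 3 with LKB1 knocked out (KO) and 3 labelled normal (WT), all listed as strain C57BL/J and 10 weeks old at harvest. LKB1 is a serine/threonine kinase encoded by Stk11. The KO mice were LKB1 fl/fl and the WT mice wild type, and both groups received an AAV8 Cre virus at 6 weeks of age, 4 weeks before the livers were taken, so exposure to Cre is shared by the groups. AAV8 is used to reach hepatocytes, and the labels do not name the promoter that drives Cre. Each library is 1 mouse, so p-values measure the spread between these mice, and the series title names metabolic reprogramming of the liver as the subject of the comparison.

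Methionine adenosyltransferase joins methionine to ATP and makes S-adenosylmethionine, the methyl donor of most cellular methylation. Once the methyl group is given away, S-adenosylhomocysteine is left, and its hydrolysis gives homocysteine, which is either remethylated to methionine or condensed with serine in the transsulfuration pathway to make cystathionine and then cysteine. The liver carries most of the body's methionine breakdown, and cysteine there feeds glutathione, sulfate and taurine, the last of which is used to conjugate bile acids.

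Total counts ran from 47659122 to 56147667 per library. Stk11, the targeted gene, was at 22.1, 14.4 and 11.4 CPM (reads of a gene scaled to a common library size) in the KO libraries and 66.1, 64.2 and 69.7 CPM in WT, which is -2.06 ± 0.25 (SE) as a log2 fold change (adjusted p = 0.0167). Library sizes in CPM are TMM-scaled throughout, and tests are edgeR's quasi-likelihood test with Benjamini-Hochberg adjustment over the 14539 genes tested. Replicate 1 of each group had 29243 to 42472 counts of Xist, against at most 16 in the other libraries, and those 4 had 6146 to 8199 counts over 4 Y-linked genes. Results are therefore also given for KO 2, KO 3, WT 2 and WT 3, called the Y-linked set, and for KO 1 and WT 1, called the Xist pair, which is 1 library against 1 and has no test. Of 8 hepatocyte markers 0 passed the test, but their summed level was 22834 to 74200 CPM in KO and 89474 to 132233 CPM in WT, with 6 of them lower in every KO library. Alb was the largest part of that sum, at 10394 to 50550 CPM in KO and 57064 to 95626 CPM in WT, and Hnf4a was higher in every KO library, at 542 to 670 against 524 to 539 CPM. The 7 endothelial markers summed to 75.5 to 129 CPM in KO and 156 to 214 CPM in WT, and 6 of them were lower in every KO library. Of all 14539 genes tested, 2251 were lower in every KO library. Kupffer cell markers overlapped between groups at 103 to 228 and 142 to 193 CPM. So did the sums of stellate cell (163 to 311 and 244 to 517 CPM), bile duct (30.9 to 86.0 and 53.0 to 85.6 CPM) and lymphocyte markers (0.76 to 1.92 and 1.75 to 2.78 CPM). In every library 3 of 5 kidney and 4 of 5 pancreas markers were at 0. The remaining pancreas marker, Cela1, was lower in every KO library, at 3.26 to 6.18 CPM against 6.49 to 18.3 CPM in WT. The part of cell composition in the results below was not tested, and in bulk tissue fewer cells of a type cannot be told apart from less RNA per cell.

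All 10 enzymes passed the filter on low counts. Of these, 3 rose in KO and 0 fell at an adjusted p under 0.05, where 3.37% of all genes tested were called in either direction and 2.15% as higher. The 3 were Cth, Gnmt and Cbs. At an unadjusted p under 0.05 there were 7 of 10, against 26.3% of all genes. In 6 enzymes every KO library was above every WT library and in Csad every KO library was below, so 7 of 10 did not overlap between groups, against 32.4% of all genes. The median log2 fold change was 1.07 over the 10 enzymes and 0.01 over all genes tested. Together the 10 took 2.01%, 2.71% and 3.45% of all counts in the KO libraries and 0.963% to 1.10% in WT.

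**Figure D1:**
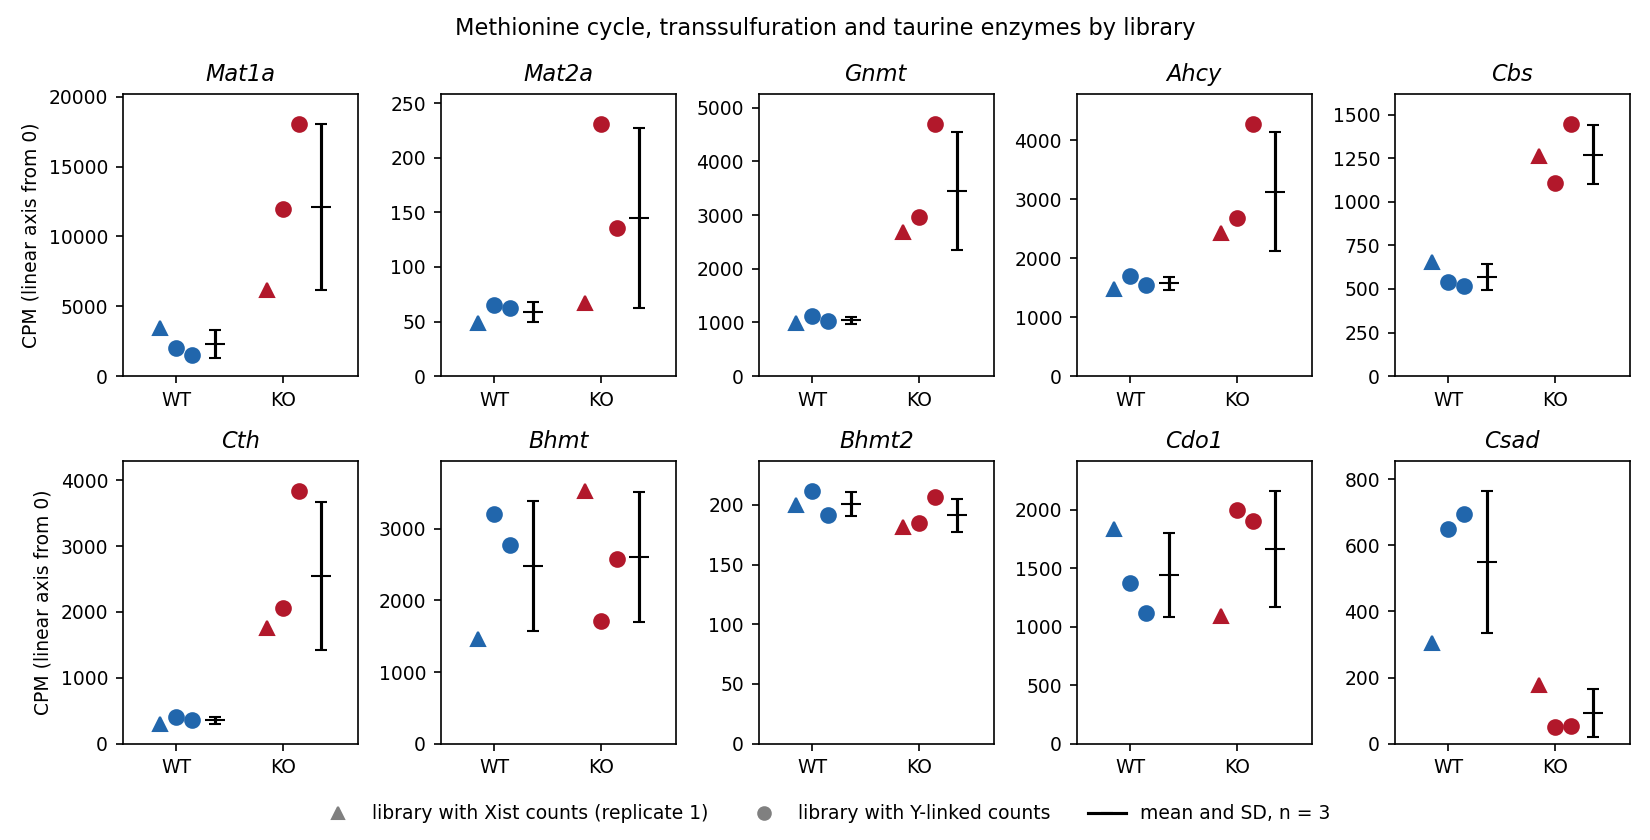
CPM of each enzyme in the 3 WT and 3 KO libraries on linear axes that start at 0, with triangles for the libraries with Xist counts, circles for those with Y-linked counts and black bars for the mean and SD (n = 3). Cth, Gnmt, Cbs, Mat1a, Mat2a and Ahcy have all 3 KO libraries above the WT libraries, Csad has them below, and the groups overlap for Bhmt, Bhmt2 and Cdo1.

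On GRCm38 the methionine cycle genes lie on chromosome 14, 41105035 to 41124412 (Mat1a), chromosome 6, 72432799 to 72439558 (Mat2a), chromosome 17, 46725664 to 46729168 (Gnmt), chromosome 2, 155059310 to 155074497 (Ahcy), and, close to each other, chromosome 13, 93616675 to 93637961 (Bhmt) and 93655720 to 93674302 (Bhmt2). The transsulfuration genes are on chromosome 17, 31608894 to 31637238 (Cbs) and chromosome 3, 157894248 to 157925077 (Cth). Cdo1 spans 46713193 to 46728395 on chromosome 18, and Csad 102176999 to 102204724 on chromosome 15. All are protein-coding, and the values are totals over all exons of a gene.

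Synthesis of S-adenosylmethionine is split between a liver enzyme and an isoform found in most tissues. Mat1a encodes the catalytic subunit of the liver enzyme. It was at 6194, 11985 and 18065 CPM in KO 1 to 3 and at 3463, 1986 and 1523 CPM in WT 1 to 3. Every KO library was above every WT library, and the Xist pair lay closest together. The log2 fold change of 2.38 ± 0.50 (SE) did not pass the threshold over 6 libraries (adjusted p = 0.0547). Within the Y-linked set it was 3.09 ± 0.36 and passed (adjusted p = 0.00369), and the Xist pair had a log2 ratio of 0.84. Mat1a alone took 0.643%, 1.30% and 1.67% of all counts in the KO libraries and 0.149% to 0.354% in WT.

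Mat2a encodes the isoform that is widespread outside the liver and is known to be raised in growing and dedifferentiated hepatocytes. Its level was 67.3, 231 and 136 CPM in KO and 48.4, 65.0 and 62.6 CPM in WT. The lowest KO library was just above the highest WT library, and KO 2 stood far above the rest. A log2 fold change of 1.30 ± 0.42 (SE) did not pass (adjusted p = 0.114), while 1.52 ± 0.26 in the Y-linked set did (adjusted p = 0.0104). Per kilobase of exon, Mat1a exceeded Mat2a by 119, 67.1 and 172 times in the KO libraries and by 92.5, 39.5 and 31.5 times in WT. That ratio overlapped between the groups. The Mat1a and Mat2a transcripts are 74.4% identical over 1146 aligned nt, and neither had a fractional count in any library.

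Glycine N-methyltransferase, the product of Gnmt, uses S-adenosylmethionine to methylate glycine to sarcosine and is an abundant liver protein that disposes of excess methyl groups. Gnmt rose from 993, 1116 and 1020 CPM in WT to 2682, 2965 and 4699 CPM in KO. The WT libraries were within a narrow range and all KO libraries were far above it. The change was 3.31-fold, or 1.73 ± 0.28 in log2 units (SE, adjusted p = 0.032). It was 1.84 ± 0.30 in the Y-linked set and 1.43 in the Xist pair.

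The 250 bases before the annotated start of Gnmt, GRCm38.p6 chr17:46729166-46729415 on the minus strand, from RefSeq, are shown because Gnmt is 1 of the enzymes that rose and its start is in the sequence table. Capitals mark 4 motifs, searched on either strand. The TATA box was searched as TATAA and the CCAAT box by its name. The GC box was searched as GGGCGG. The half-site of the cAMP response element was searched as TGACG.
Gnmt: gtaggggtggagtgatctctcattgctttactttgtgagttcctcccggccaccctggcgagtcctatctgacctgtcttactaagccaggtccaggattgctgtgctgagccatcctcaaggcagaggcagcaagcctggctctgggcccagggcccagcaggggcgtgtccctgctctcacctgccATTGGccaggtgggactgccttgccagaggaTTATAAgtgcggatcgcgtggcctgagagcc
The window held overlapping TATA box matches on both strands, the nearest 25 bases before the start, and a CCAAT box 57 bases before it. It held 0 GC boxes and 0 half-sites. Of 32851 such windows of all genes, 22.8% hold a TATA box, 33.8% a CCAAT box, 32.7% a GC box and 17.8% a half-site.

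Ahcy encodes the hydrolase that splits S-adenosylhomocysteine into homocysteine and adenosine. It was at 2424, 2678 and 4276 CPM in KO and at 1479, 1698 and 1546 CPM in WT, without overlap. Its log2 fold change of 0.99 ± 0.28 (SE) did not pass (adjusted p = 0.0879), but 1.10 ± 0.29 in the Y-linked set did (adjusted p = 0.0383). Ahcy counts were fractional in all 6 libraries. The near copy Gm4737, whose transcript is 99.7% identical over 2086 nt, was assigned a mean of 283 CPM in KO and 135 CPM in WT, so the split of reads between them bears on both values.

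Betaine-homocysteine methyltransferases return homocysteine to methionine. Bhmt, which takes its methyl group from betaine, was at 3526, 1716 and 2576 CPM in KO and 1466, 3212 and 2782 CPM in WT. The groups overlapped, and KO 1 was the highest of all libraries and WT 1 the lowest. The log2 fold change was 0.07 ± 0.39 (SE, adjusted p = 0.927) over 6 libraries, -0.49 ± 0.28 (adjusted p = 0.23) in the Y-linked set and 1.27 in the Xist pair. Bhmt2, whose product uses S-methylmethionine, was at 182 to 207 CPM in KO and 192 to 211 CPM in WT, with a log2 fold change of -0.07 ± 0.14 (adjusted p = 0.77). Bhmt also had fractional counts in all 6 libraries. Its near copy Gm5096, 99.6% identical over 545 nt, was at 18.2 to 53.2 CPM.

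Transsulfuration begins with cystathionine beta-synthase, encoded by Cbs, which joins homocysteine to serine. Cbs rose from 654, 539 and 516 CPM in WT to 1260, 1105 and 1447 CPM in KO, by 1.16 ± 0.20 log2 units (SE, adjusted p = 0.0372). The rise was 2.23-fold with no overlap, and it was 1.27 ± 0.21 (adjusted p = 0.00928) in the Y-linked set and 0.95 in the Xist pair.

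The window before the start of Cbs, GRCm38.p6 chr17:31637206-31637455 on the minus strand, is given for comparison with that of Gnmt, with the same motifs in capitals.
Cbs: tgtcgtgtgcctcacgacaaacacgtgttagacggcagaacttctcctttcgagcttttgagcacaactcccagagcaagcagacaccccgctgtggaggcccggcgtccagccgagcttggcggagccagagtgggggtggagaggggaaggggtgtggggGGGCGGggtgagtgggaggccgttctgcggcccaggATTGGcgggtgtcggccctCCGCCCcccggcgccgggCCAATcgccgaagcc
It was 68.0% G and C, against 60.4% for Gnmt, and held 0 TATA boxes but 2 matches each to the GC box and the CCAAT box, the nearest of them 27 and 10 bases before the start. In GENCODE M21 the Cbs gene extends to 31637238, so the end of the Cbs window, with these nearest matches, lies inside it. Neither window held a half-site. The full cAMP response element, TGACGTCA, is in 1.55% of all windows, and the composite site of ATF4 and C/EBP factors, searched as TGATGNAA, is in 3.45%. Neither was found in the 8 windows read for 7 of the enzymes, too few windows at these shares to tell a lack from the background. No window was read for Cth, Mat1a or Cdo1, so the search does not cover them.

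Cystathionine gamma-lyase, encoded by Cth, cleaves cystathionine to cysteine and is a source of hydrogen sulfide. Over the 6 libraries Cth had the largest fold change of the 10 enzymes. It rose from 299, 409 and 361 CPM in WT to 1753, 2055 and 3832 CPM in KO, 7.15-fold or 2.84 ± 0.36 (SE) in log2 units (adjusted p = 0.018). The lowest KO library was more than 4 times the highest WT library. The difference was 2.93 ± 0.36 (adjusted p = 0.00405) in the Y-linked set and 2.55 in the Xist pair. Per kilobase of merged exons Cth exceeded Cbs by 3.73 to 7.10 times in KO and 1.23 to 2.03 times in WT, without overlap. That order depends in WT on the merged exon lengths, 7485 nt for Cbs and 2791 nt for Cth. In CPM, Cbs was above Cth in every WT library, at 516 to 654 against 299 to 409.

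Taurine synthesis starts with cysteine dioxygenase, encoded by Cdo1, which oxidises cysteine to cysteine sulfinate. Cdo1 was at 1094, 1993 and 1901 CPM in KO and 1833, 1374 and 1120 CPM in WT. The groups overlapped, with KO 1 the lowest of all libraries and WT 1 above the other WT libraries. The log2 fold change was 0.21 ± 0.31 (SE, adjusted p = 0.704), with 0.64 ± 0.21 (adjusted p = 0.0664) in the Y-linked set and -0.74 in the Xist pair.

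Csad encodes cysteine sulfinate decarboxylase, which makes hypotaurine from the product of Cdo1. It was the 1 enzyme of the 10 that was lower in every KO library, at 177, 49.3 and 52.1 CPM against 303, 650 and 694 CPM in WT. KO 1 and WT 1 lay closest to each other, and the remaining libraries formed far extremes. The log2 fold change of -2.57 ± 0.60 (SE) did not pass over 6 libraries (adjusted p = 0.0647). Within the Y-linked set it fell, by 3.73 ± 0.16 on the log2 scale (adjusted p = 0.000328), and the Xist pair had -0.78. The difference between these values passed as an interaction of group and Xist state, 2.95 ± 0.26 on the log2 scale (adjusted p = 0.00912). The Xist pair holds 1 library per group, so the spread behind this test comes from the Y-linked set alone and includes no variation between mice with Xist counts. Csad was the single enzyme of the 10 past the threshold in that test, where 2.90% of all genes were called. Exons of Csad share 278 nt with Zfp740 on the opposite strand, which was at 29.8 to 37.4 CPM.

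RefSeq lists a pair of start windows for Csad, both on the minus strand of GRCm38.p6 chromosome 15, at chr15:102205053-102205302 and chr15:102189044-102189293. They are shown because the count is per gene and does not separate starts. The upstream window lies outside the Csad gene of GENCODE M21.
Csad, upstream start: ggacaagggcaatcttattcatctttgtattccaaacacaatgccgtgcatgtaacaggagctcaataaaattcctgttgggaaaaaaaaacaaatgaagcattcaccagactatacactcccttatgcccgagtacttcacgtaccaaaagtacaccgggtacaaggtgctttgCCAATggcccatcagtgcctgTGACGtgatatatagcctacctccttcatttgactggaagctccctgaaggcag
Csad, downstream start: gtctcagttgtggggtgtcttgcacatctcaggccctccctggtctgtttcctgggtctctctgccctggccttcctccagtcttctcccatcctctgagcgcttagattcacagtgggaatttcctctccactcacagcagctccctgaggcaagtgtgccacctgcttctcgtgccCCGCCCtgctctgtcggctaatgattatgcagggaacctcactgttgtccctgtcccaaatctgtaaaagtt
The upstream window held 1 half-site, 49 bases before the start, and 1 CCAAT box. The downstream window held neither but had 1 GC box. Among the 8 windows read for 7 enzymes, the upstream window of Csad was the only one with a half-site.

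**Figure D2:**
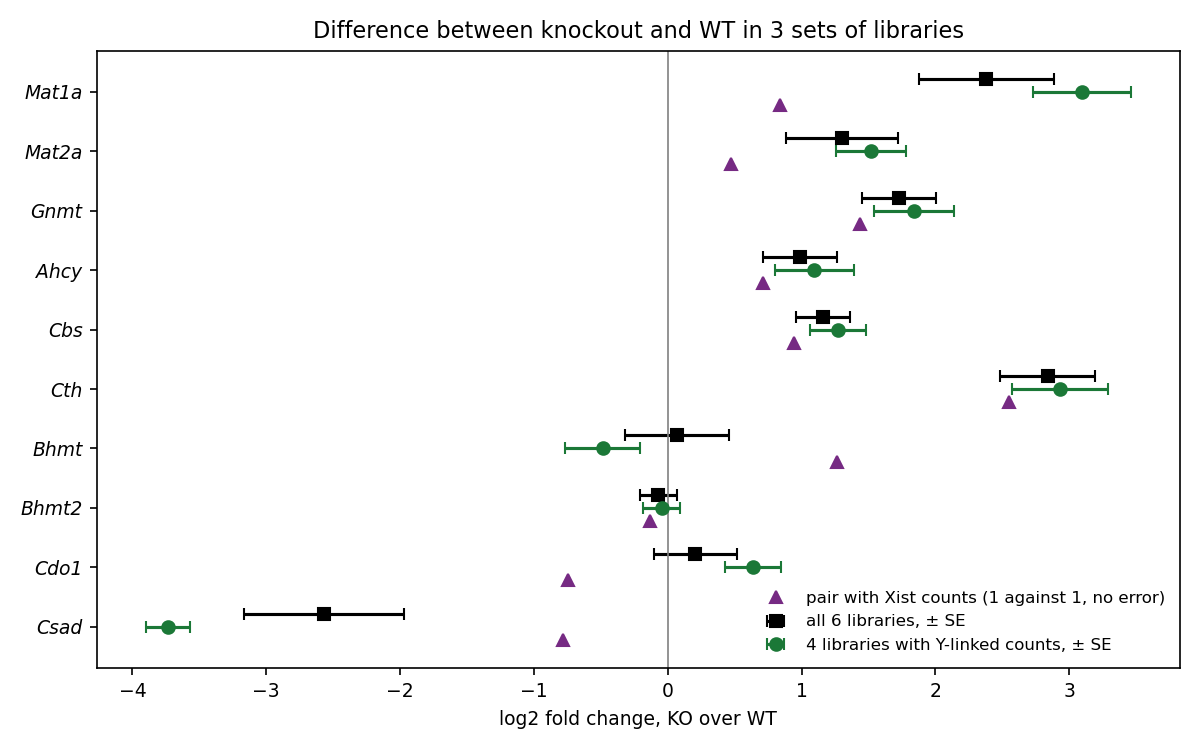
Log2 fold change of KO over WT for each enzyme in all 6 libraries (squares, ± SE), in the 4 libraries of the Y-linked set (circles, ± SE) and in the Xist pair (triangles, no error). Cth, Gnmt, Cbs and Ahcy have similar values in the 3 sets, Bhmt and Cdo1 lie on opposite sides of 0 in the Y-linked and the Xist sets, and Csad runs from -3.73 to -0.78.

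In the Y-linked set alone, 7 of 10 enzymes passed the threshold, 6 higher and 1 lower, but 33.3% of all genes did. Mat1a, Mat2a, Ahcy and Csad were added there to Cth, Gnmt and Cbs. Bhmt and Cdo1 moved in opposite directions in the 2 sets of libraries with no overlap within the Y-linked set, as did 23.3% of all genes tested. Their interactions were 1.75 ± 0.49 and -1.39 ± 0.37 on the log2 scale and did not pass (adjusted p = 0.14 and 0.127). Mat1a had a larger one, -2.26 ± 0.58, and Mat2a had -1.05 ± 0.44, and neither passed (adjusted p = 0.122 and 0.252). For Cth, Gnmt, Cbs, Ahcy and Bhmt2 the interaction was between -0.41 and -0.09 with adjusted p-values of 0.646 to 0.858, so a difference between the sets was not detected for them.

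The calls depended on single libraries. Without KO 1 the test called 7 enzymes, where it called 30.2% of all genes. Without KO 2 or KO 3 it called 1, which was Cth, where it called 0.578% and 0.233% of all genes. Without WT 1, WT 2 or WT 3 it called 0 enzymes, and 1.75%, 0.0401% and 0.133% of all genes. The adjusted p of Cth was 0.00233 to 0.118 over these 6 refits, that of Gnmt 0.00426 to 0.167 and that of Cbs 0.00888 to 0.21, while their log2 fold changes stayed between 2.42 and 3.04, 1.44 and 1.87, and 1.05 and 1.27.

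Levels were compared between genes per kilobase of merged exons, which lowers genes with many annotated exons. In WT the order of the mean was Cdo1 at 877 ± 220, Gnmt at 865 ± 53.9, Mat1a at 670 ± 292, Ahcy at 561 ± 39.9 and Bhmt at 432 ± 158 CPM per kb (SD, n = 3). Neighbours in this stretch overlapped between libraries. Below a gap came Csad at 143 ± 55.9 and Cth at 128 ± 19.7, then Bhmt2 at 81.5 ± 4.01 and Cbs at 76.1 ± 9.88, and last Mat2a at 13.1 ± 2.00 CPM per kb. Csad overlapped with Cth and Bhmt2 with Cbs, and the other steps between neighbours did not overlap. Csad in WT 1, at 79.2 CPM per kb, also lay within the WT ranges of Bhmt2 and Cbs.

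In KO the order opened with Mat1a at 3484 ± 1712 and Gnmt at 2860 ± 906 CPM per kb, which overlapped. Ahcy at 1114 ± 358, Cdo1 at 1011 ± 301 and Cth at 912 ± 402 followed and overlapped in turn, with Cth now above Bhmt at 453 ± 157 in every comparison of libraries. Cbs at 170 ± 22.9, Bhmt2 at 77.5 ± 5.54, Mat2a at 32.3 ± 18.3 and Csad at 24.2 ± 19.0 closed the order, of which Mat2a and Csad overlapped. Among all genes tested Mat1a ranked 59, 100 and 112 in the WT libraries and 38, 17 and 15 in the KO libraries.

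**Figure D3:**
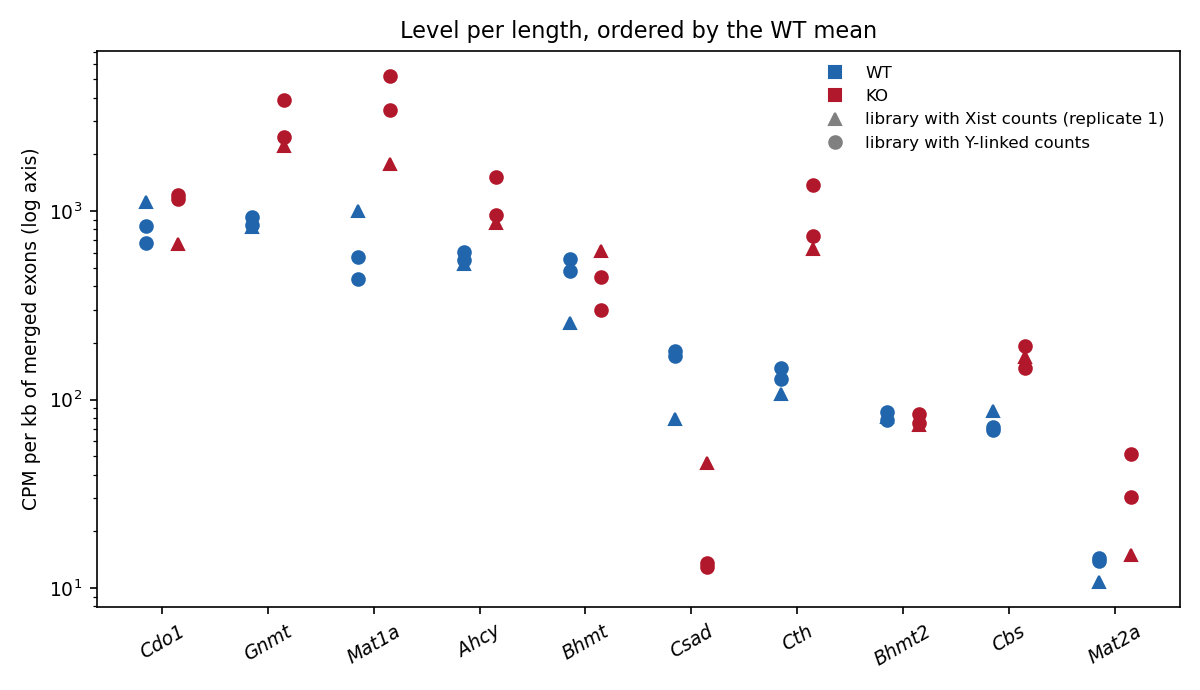
Level of each enzyme per kilobase of merged exons (log axis) in every WT and KO library, ordered from the left by the WT mean. Mat1a and Gnmt are at the top in KO, Cth is near 128 in WT and between 628 and 1373 in KO, and Csad falls to the level of Mat2a in KO.

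Genes whose profile over the 6 libraries was most like that of a called enzyme were found by the root mean square difference of centred log2 CPM among 7503 genes with a mean of at least 10 CPM. For Gnmt they were Tat, tyrosine aminotransferase, at 0.09, Hgd, homogentisate dioxygenase, at 0.10, and Gm5424, a processed pseudogene of the urea cycle gene Ass1, at 0.13 log2 units. For Cbs they were Rrm1 (0.08), a subunit of ribonucleotide reductase, Uroc1 (0.10), urocanase of histidine breakdown, and Fam13b (0.10). For Cth they were Fh1 (0.25), fumarate hydratase, Oat (0.28), ornithine aminotransferase, and Etnk2 (0.29), an ethanolamine kinase. Since they were picked for a profile like that of an enzyme that rose, their own direction was fixed by the choice, and their log2 fold changes, from 1.05 for Uroc1 to 2.99 for Oat, are a description. Among the enzymes themselves the closest pair was Ahcy and Cbs at 0.26 and the farthest Cth and Csad at 2.90 log2 units.

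The other genes of sulfur amino acid metabolism were taken from 7 lists of 60 genes, of which 57 were tested. Of these 2 rose and 0 fell, which is 3.51% against 3.37% of all genes, and 15 had an unadjusted p under 0.05, which is 26.3% as over all genes. Their counts were thus at the background, and the median log2 fold change was -0.01. Nnmt, nicotinamide N-methyltransferase, which consumes S-adenosylmethionine to methylate nicotinamide, was 1 of the 2. It rose from 31.7 to 40.4 CPM in WT to 617, 978 and 1232 CPM in KO, by 4.74 ± 0.32 log2 units (SE, adjusted p = 0.00357), more than any of the 10 enzymes over the same 6 libraries. Got1, the cytosolic aspartate aminotransferase, which also acts on cysteine and cysteine sulfinate, rose from 108 to 228 CPM in WT to 823, 1727 and 1916 CPM in KO (3.19 ± 0.43, adjusted p = 0.0214).

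Among 9 methyltransferases of small molecules Nnmt was the only one called. A negative fold change was seen in 6 of the 9, and in 7129 of all 14539 genes tested. Of 8 genes of cysteine and sulfide oxidation Got1 was the only one called, and the next, Kyat1, a cysteine conjugate lyase, was at -0.74 ± 0.18 (adjusted p = 0.0729). No gene was called in the other 5 lists.

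Methionine uptake, the remaining cycle genes and the folate link had 0 of 11 called and 3 with an unadjusted p under 0.05 in edgeR. Mtrr, which reactivates methionine synthase, and Slc43a1, an amino acid transporter, had the smallest p-values, with log2 fold changes of 0.68 ± 0.23 and 0.97 ± 0.34 (adjusted p = 0.128 and 0.138). In betaine supply and breakdown 0 of 6 were called. The betaine carrier Slc6a12 was at 0.48 ± 0.16 and the choline carrier Slc44a1 at -0.78 ± 0.28 (adjusted p = 0.127 and 0.139), and 2 genes had an unadjusted p under 0.05.

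Polyamine synthesis and methionine salvage had 0 of 10 called and 2 with an unadjusted p under 0.05 in edgeR, Sat1, the spermidine and spermine acetyltransferase, at 1.43 ± 0.37 and Adi1 of the salvage pathway at -0.62 ± 0.25 (adjusted p = 0.0769 and 0.175). Beyond Cdo1 and Csad the taurine branch had 0 of 5 called and 1 with an unadjusted p under 0.05. That was the taurine carrier Slc6a6, at 0.79 ± 0.26 (adjusted p = 0.122), and Slc6a13, a further carrier of this list, was at -0.37 ± 0.18 (adjusted p = 0.256). Glutathione synthesis and turnover had 0 of 8 called and 1 with an unadjusted p under 0.05, glutathione synthetase Gss at 0.77 ± 0.27 (adjusted p = 0.138). Glutathione reductase Gsr was at 0.79 ± 0.42 (adjusted p = 0.276). By DESeq2, 8 of the 57 genes passed, where 15.8% of all genes did, and 25 did in the Y-linked set, where 33.3% of all genes did. In edgeR the count was 22 without KO 1, 3 without WT 1, 1 without KO 2, KO 3 or WT 3 and 0 without WT 2.

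**Figure D4:**
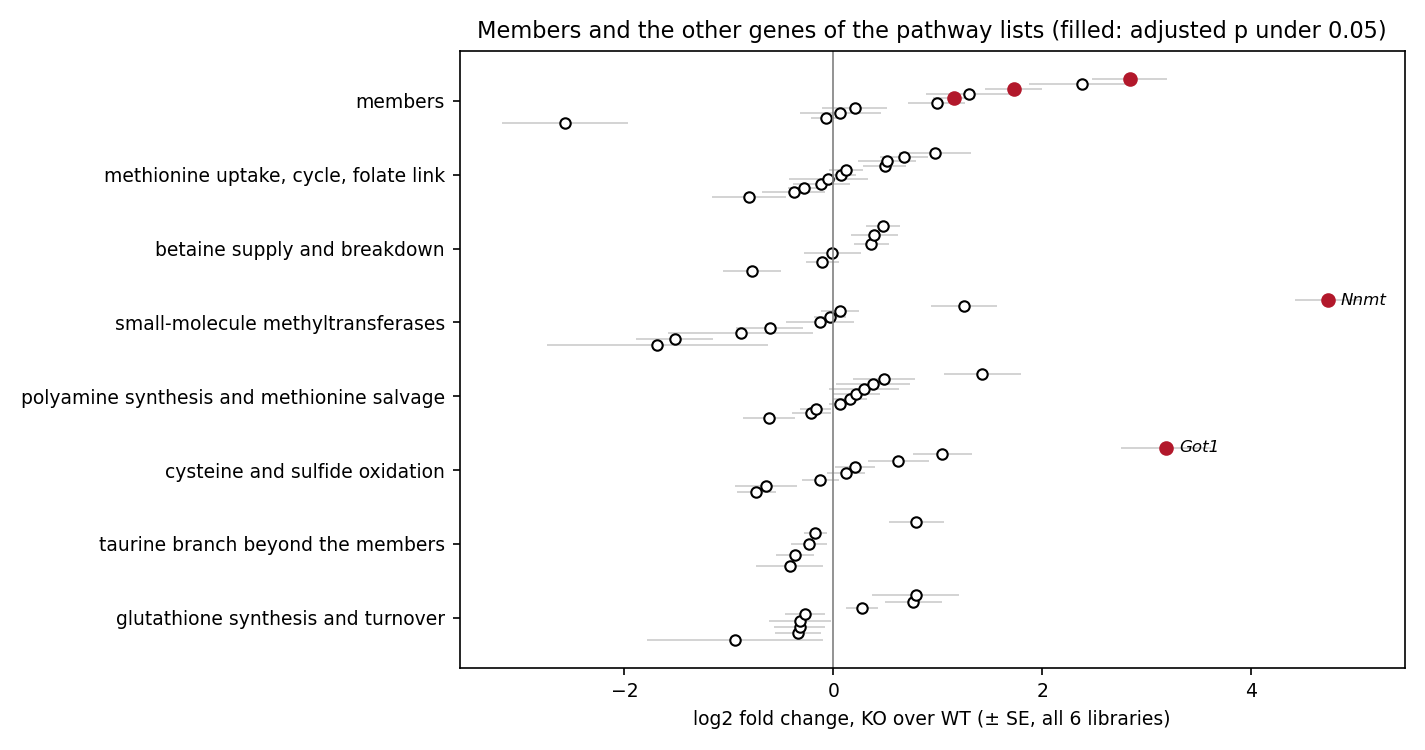
Log2 fold change of KO over WT with its SE in all 6 libraries for the 10 enzymes and the tested genes of each pathway list, with filled points for an adjusted p under 0.05. Nnmt at 4.74 and Got1 at 3.19 are the filled points outside the 10 enzymes.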

How the data were processed

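Poly(A) RNA of about 20 mg of left liver lobe per mouse was sequenced with paired reads of 76 nt, 1 library per mouse. The authors deposited expected counts, the read numbers per gene that RSEM estimates; per the submitters' processing notes, bcl2fastq 2.17, cutadapt 1.18, STAR 2.7.0f and RSEM 1.3.1 were used. Those notes name mm9, whereas all 55450 identifiers, versions included, are in GENCODE M21 (GRCm38), from which positions and exon lengths were taken. Use of strand is not given in the sources used here, so overlapping and antisense genes are uncertain.

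Expected counts were rounded, filtered by filterByExpr (14539 genes kept), scaled by TMM and compared with the quasi-likelihood test of edgeR 4.0.16 in R 4.3.3 with the group as the only term and a threshold of 0.05 on the adjusted p. The SE is the log2 fold change divided by the root of the F statistic. Xist state was read from Xist and Y-linked counts, and its interaction with the group was fitted over all genes. Alternatives used DESeq2 1.42.0, limma 3.58.1, other scaling and filters, a replicate block and left-out libraries. Near copies came from blastn 2.17.0 with at least 95% identity over 300 nt. The test was also tried on simulated counts.

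Groups and replicate numbers come from the sample titles, and 0 columns were left without a sample. Same-numbered mice are not stated to be paired. The enzymes, the 7 pathway lists and the tests were chosen with earlier results of these data known. Named list genes are those past the threshold or, where fewer than 2 passed, the 2 with the smallest p. The result of 1 such gene is not reported here. RefSeq start windows of GRCm38.p6 were used for 7 of the 10 enzymes.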

Additional observations from a re-analysis of the deposited data

Results flagged for a closer look

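The log2 fold change of Csad differed between the Y-linked set and the Xist pair: the interaction was 2.95 (adjusted p = 0.00912 in edgeR, with a spread taken from the Y-linked set alone), with both KO libraries below both WT libraries by a mean log2 fold change of -3.73 where Y-linked counts were present, and -0.78 in the Xist pair. Bhmt was higher in KO 1 than in WT 1 but lower in both other KO libraries than in both other WT libraries, with an interaction of 1.75 that did not pass (adjusted p = 0.14). Cdo1 had the opposite arrangement, with an interaction of -1.39 (adjusted p = 0.127). The Xist state is carried by 1 library in each group, so it cannot be told apart from other features of those libraries. Stk11, the targeted gene, had a log2 fold change of -2.38 ± 0.15 (SE) in the Y-linked set and -1.58 in the Xist pair. Its interaction of 0.80 ± 0.24 (SE) on the log2 scale did not pass. The part of Stk11 in the differences between the sets was not tested.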

How the results depend on the processing

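The number of enzymes called was 3 of 10 (3 higher). It was 7 by DESeq2 and 7 in the Y-linked set, where 15.8% and 33.3% of all genes were called. Without a filter on low counts it was 5 and with the replicate block 1, and shares over all genes are not given for these. Over the refits that leave out 1 library it was 0 to 7, where 0.0401% to 30.2% of all genes were called. The number of genes called, 490, was 2290 by DESeq2, 1504 with the Xist state as a term, 4847 in the Y-linked set, 771 without the filter, 105 with the replicate block and 6 to 4473 over the refits without 1 library. With unscaled library sizes the split was 380 higher and 131 lower, in place of 313 and 177. The count of other pathway genes called, 2, was 8 by DESeq2, 25 in the Y-linked set, 1 with the block and 0 to 22 without 1 library. The 1 enzyme with an interaction became 3 with scaling by library size alone, a setting whose share over all genes is not given here. Stk11 kept its direction in every alternative. It was between -2.37 and -1.87 over the refits without 1 library, of which those without KO 2, KO 3, WT 2 or WT 3 had an adjusted p of 0.0607 to 0.104, and at -1.58 in the Xist pair.

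Directions reversed for Bhmt, at -0.49 in the Y-linked set, -0.22 without KO 1 and -0.20 without WT 1 (-0.22 to 0.30 over the refits without 1 library), and, in the Xist pair, for Cdo1 (-0.74), Slc43a1 (-0.20), Gss (-0.035), Gsr (-0.19) and Adi1, which had 0.0021. The causes were not tested. Of 140 tested values for the 10 enzymes under alternatives, 107 kept their direction and their side of the threshold, 15 lost a call, 15 gained one and 3 reversed. Only the 3 called enzymes could lose a call, and Gnmt lost it in 6 of 14 alternatives, Cbs in 6 and Cth in 3. In the replicate block, Gnmt and Cbs lost their calls and Cth kept its call. The replicate numbers share no stated mouse or batch: deviations from the group means correlated at 0.178, 0.044 and 0.068 for same-numbered KO and WT libraries, and KO 2 and KO 3 correlated more with another number. About 3 counts per library correspond to 0.0515 to 0.0641 CPM, below the level of all 10 enzymes in every library.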

Other observations

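Ratios per kilobase were computed for 5 pairs of the enzymes. The ratio of Gnmt, which produces S-adenosylhomocysteine, to Ahcy, which hydrolyses it, was 2.57, 2.58 and 2.56 in KO 1 to 3 and 1.56, 1.53 and 1.53 in WT 1 to 3. The SD within groups was 0.0106 around 2.57 in KO and 0.0169 around 1.54 in WT, although Gnmt itself ranged from 2682 to 4699 CPM among the KO libraries. With the near copy Gm4737 added to Ahcy the ratio was 2.34 to 2.36 in KO and 1.41 to 1.44 in WT. The ratio of Cdo1 to Csad was 14.4, 94.2 and 84.9 in KO and 14.1, 4.92 and 3.76 in WT, so that KO 1 and WT 1 had nearly equal values. Bhmt to Bhmt2 ran from 3.98 to 8.31 in KO and from 3.14 to 6.51 in WT and overlapped. These ratios are descriptions with no test.

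Gm43314, a record on the same strand within Cth that awaits experimental evidence in the annotation and shares no exon sequence with Cth, was also higher in KO, at a mean of 11.4 against 2.25 CPM (log2 fold change 2.35, adjusted p = 0.0322 in edgeR). It was chosen after its values were seen.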
